A study of Homo sapiens with 6 samples.

Results

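The genes described here are 9 members of the fibroblast growth factor (FGF) system in J82 bladder cancer cells: the receptors FGFR1, FGFR2, FGFR3, FGFR4 and FGFRL1, the ligands FGF1, FGF2 and FGF5, and the carrier protein FGFBP1. They were taken by symbol, and the estimated counts of all their transcripts were summed per gene. They are 9 of 52989 genes matched, and 6 of the 9 reached a mean of at least 50 counts over the libraries, as did 11908 genes in all. J82 is an established human bladder cancer line. Cells carrying an inducible ZFP36L1 construct (tet-ZFP36L1) were set against cells of a control line (tet-control), and total RNA was sequenced. ZFP36L1 attaches to AU-rich elements in the 3′ UTR of mRNAs and speeds up their decay.

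The 6 groups were tet-ZFP36L1 at 0, 6 and 24 h and tet-control at 0, 6 and 24 h, with 1 library each. The 6 h and 24 h cells of both lines received doxycycline, used at 1 µg/mL, and the 0 h cells did not. No 6 h or 24 h culture went without doxycycline, so in changes since 0 h doxycycline and time in culture cannot be told apart. All cells were grown close to confluence before treatment. The labels do not say what the control construct carries or whether either line is a single clone, so a difference between the lines at 0 h cannot be told apart from a difference between clones or cultures. No group had a replicate, so no test was run and p-values are not reported. The bracketed ranges are 95% intervals of counting error, and the variation between cultures is not in them.

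FGF ligands bind receptor tyrosine kinases at the cell surface together with heparan sulfate, and the activated receptors signal through the adaptor FRS2 to the RAS and ERK kinases. FGFRL1 binds FGF ligands and heparan sulfate but lacks the tyrosine kinase domain of the other receptors, and it is regarded as a decoy. FGFBP1 releases stored FGF from the extracellular matrix. In the bladder, activating mutations of FGFR3 are a well-known driver of urothelial carcinoma.

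The libraries held 20739025 to 21380480 estimated counts. ZFP36L1 itself measured 220, 3127 and 3132 CPM (counts per 1000000 of the library, scaled by the TMM method) in the 0, 6 and 24 h libraries of tet-ZFP36L1, against 206 to 234 CPM in tet-control. The 24 h library of tet-ZFP36L1 differed from the rest, with a TMM factor of 1.115 against 0.941 to 1.006 in the others, and 15694 genes with 10 or more counts against 14514 to 14955. Of 20 urothelial and epithelial markers, 7 reached 1 TPM (transcripts per 1000000, a level scaled for length) in every library, among them KRT7, KRT8 and KRT18, while UPK2, UPK3A and KRT14 were listed at 0. The summed level of the 20 was 1275 to 1640 TPM in tet-ZFP36L1 and 681 to 845 TPM in tet-control. The 6 mesenchymal markers summed to 3696, 4008 and 1473 TPM in tet-ZFP36L1 at 0, 6 and 24 h, against 672 to 779 TPM in tet-control. Most of the sum in tet-ZFP36L1 was FN1, at 2579, 2786 and 760 TPM, against at most 158 TPM in tet-control. VIM, CDH2 and ZEB2 were also higher in tet-ZFP36L1 at each time. ZEB1 was higher only at 0 h, and TWIST1 was listed at 0. ZEB2 did not fall with the sum in tet-ZFP36L1, at 11.6 TPM at 0 h and 13.2 TPM at 24 h. The part of these line differences in the values below was not tested, and in bulk RNA fewer cells of a kind and less RNA per cell cannot be told apart.

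Because ZFP36L1 binds AU-rich elements, the 3′ UTR of the most abundant protein-coding transcript of each measured member was searched, on the transcript strand only, for the ZFP36-family core motif TATTTAT. FGFRL1, FGF1 and FGF2 each held 1 match, and FGFR1, FGFR4 and FGF5 held none. For FGFR1 the searched transcript was FGFR1-207 (3′ UTR of 694 bases), with 22.7% to 27.7% of the counts of the gene. For FGF5 it was FGF5-203, with 38.2% to 49.0%. Other transcripts were not searched, so these genes are not shown to lack the motif. The matches are shown 5′ to 3′ with 10 bases on each side and the motif in capitals. The FGFRL1 match lies at GRCh38 chr4:1026629-1026655 on the plus strand, the FGF1 match at chr5:142592910-142592936 on the minus strand, and the FGF2 match at chr4:122897190-122897216 on the plus strand.
FGFRL1: ggggccttggTATTTATatttaagaaa
FGF1: cagggcattaTATTTATgatgaaagat
FGF2: gactttattaTATTTATttcaaagttc
None of the 3 had the longer form of the motif with a further T at each end. Among measured genes whose 3′ UTR was within 20% of the same length, the motif was held by 33.5% of 1276 for FGFRL1 (3′ UTR of 1550 bases), 57.3% of 1042 for FGF1 (3112 bases) and 75.2% of 419 for FGF2 (5840 bases). For FGF5, whose 4676 bases hold no match, the share was 70.5% of 645. Over all 10549 measured protein-coding genes searched it was 29.1%. A match is a string of letters and was not tested for binding.

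Levels could be ordered per length on the TPM scale. FGF5, a secreted FGF, was the highest of the 9 genes in every library, at 40.6 to 88.8 TPM in tet-ZFP36L1 and 59.5 to 132 TPM in tet-control. FGFR1 came next in 3 of the 6 libraries, at 29.3 to 42.3 TPM in tet-ZFP36L1 and 26.8 to 27.6 TPM in tet-control. In tet-control at 0 h FGFRL1, at 27.6 TPM, and FGFR1, at 27.0 TPM, were side by side. FGFRL1 and FGF2 changed places between libraries, and FGF1 moved from the lower end of the measured genes at 0 h in tet-ZFP36L1, at 4.13 TPM, to 50.6 TPM at 6 h. FGFR2, FGFR3 and FGFBP1 stayed below 1 TPM everywhere. These levels sum all transcripts of a gene, and transcripts with less than 5% of its counts can weigh heavily in TPM. In tet-ZFP36L1 at 0 h FGF5-201, FGF5-203 and FGF5-204, which had more, stood at 7.12, 9.20 and 5.91 TPM of the 40.6 TPM of FGF5. FGFR1 also had TPM in such minor transcripts. The order of the genes without them was not worked out.

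**Figure D1:**
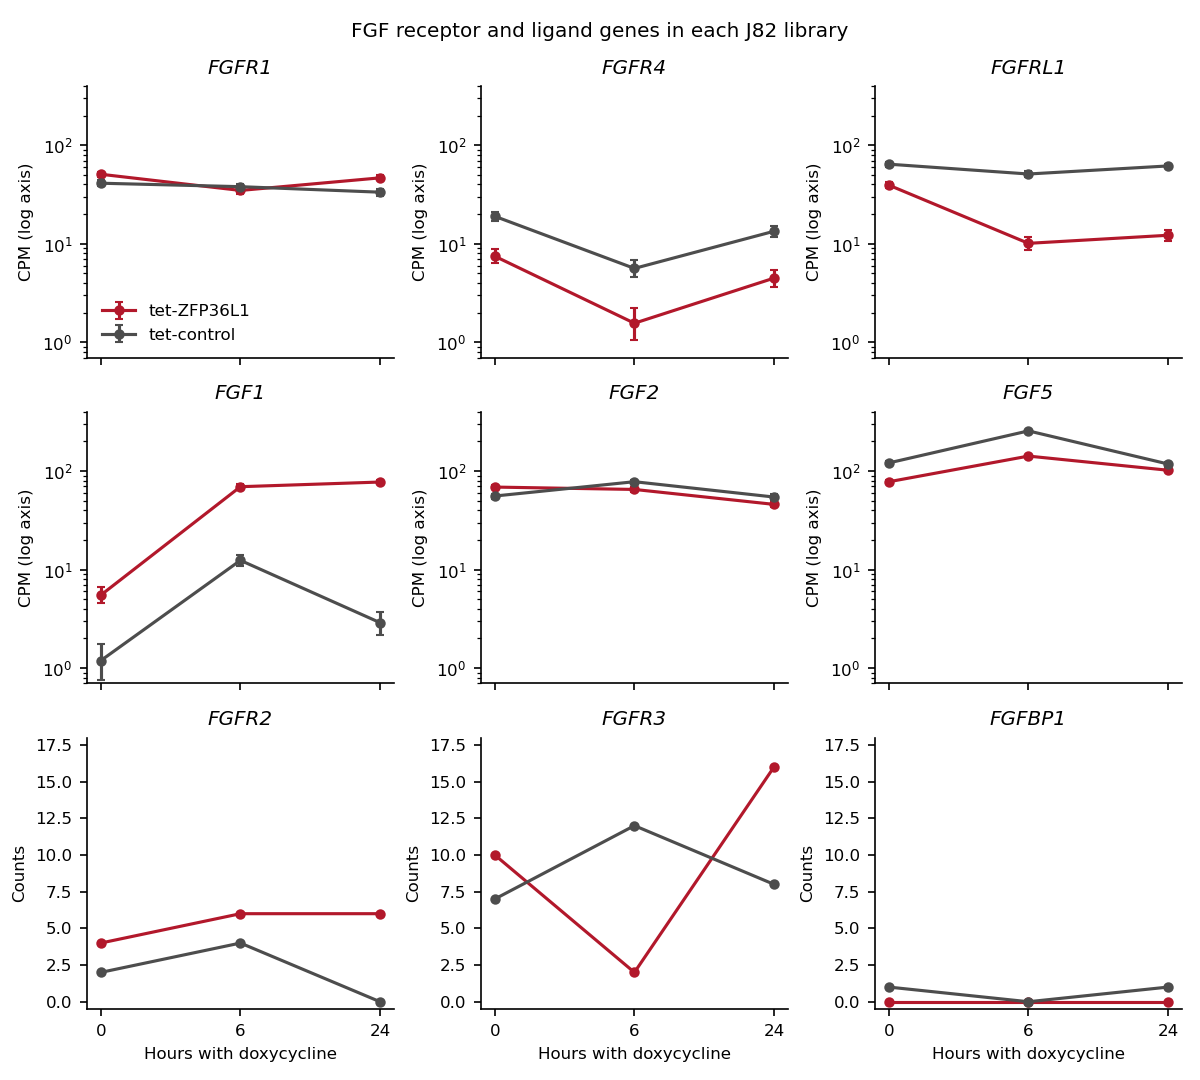
Level of the 6 measured FGF genes in CPM (TMM-scaled, log axis, exact Poisson 95% intervals) and counts of FGFR2, FGFR3 and FGFBP1 (linear axis, no intervals) at 0, 6 and 24 h in tet-ZFP36L1 and tet-control, 1 library per point, with evenly spaced times. FGF1 has 69.4 and 77.4 CPM in tet-ZFP36L1 at those last 2 times and 12.4 and 2.89 CPM in tet-control, and FGFRL1 at 10.1 and 12.2 CPM against 51.1 and 61.7 CPM.

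Among the receptors with a kinase domain, FGFR1 had the highest TPM in both lines. It made up 87.4%, 95.3% and 93.1% of the summed TPM of FGFR1, FGFR2, FGFR3 and FGFR4 in tet-ZFP36L1 at 0, 6 and 24 h, against 70.1%, 86.9% and 78.3% in tet-control. FGFR4 made up 11.4%, 3.30% and 5.74% in tet-ZFP36L1 and 29.5%, 12.2% and 21.4% in tet-control. At each time FGFR4 therefore held a smaller share of the receptor transcripts in tet-ZFP36L1, and in both lines its share was lowest at 6 h. The TPM of FGFR1 sums all 41 of its transcripts, not only the coding ones. FGFR1-236, of 842 bases and annotated for nonsense-mediated decay, held 7.22 of its 36.0 TPM in tet-ZFP36L1 at 0 h, with 7.26% of its counts.

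**Figure D2:**
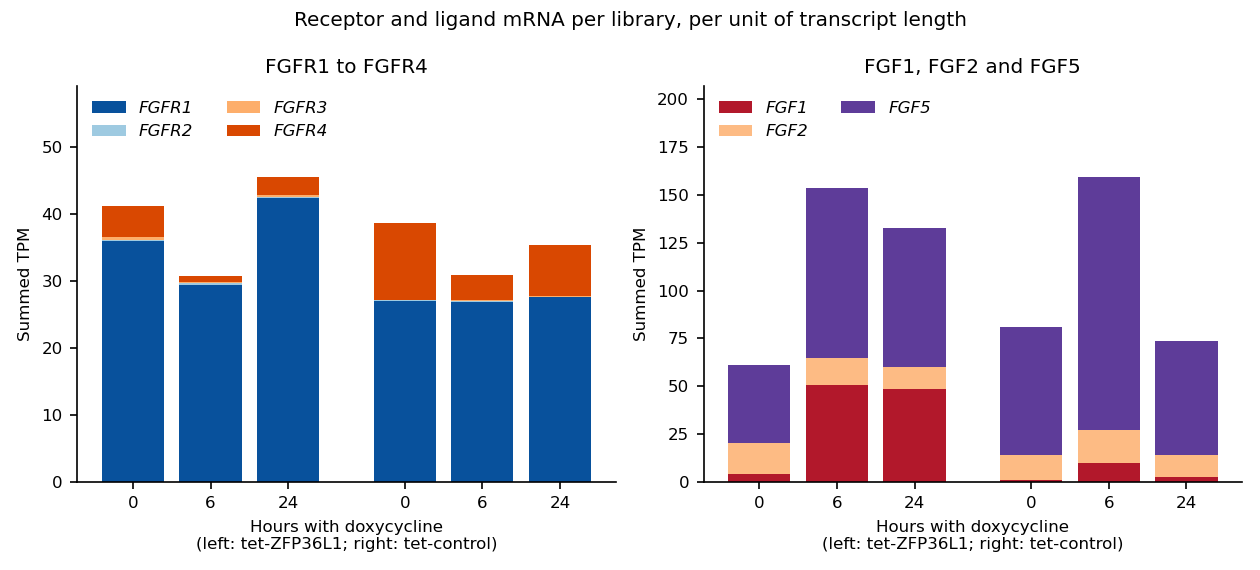
Summed TPM of the 4 kinase receptors and of the 3 ligands in each library, as bars stacked by gene, with tet-ZFP36L1 left of tet-control. FGFR1 holds 70.1% to 95.3% of receptor TPM in all 6 libraries, while FGF1 holds 32.9% and 36.4% of ligand TPM at 6 and 24 h in tet-ZFP36L1 and at most 6.16% in tet-control.

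FGFR1 (ENSG00000077782; GRCh38 chromosome 8, 38400215 to 38468834, minus strand), a receptor for many FGF ligands, varied least of the 6 measured members. It measured 50.8, 34.8 and 46.7 CPM in the 0, 6 and 24 h libraries of tet-ZFP36L1, against 41.2, 38.0 and 33.4 CPM in tet-control. The highest of these was 1.52 times the lowest, and the lines overlapped. In tet-ZFP36L1 the 6 h level was 0.685 of that at 0 h (0.621 to 0.756), and in tet-control the 24 h level was 0.811 of that at 0 h (0.731 to 0.899).

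FGFR1 transcripts differ in the exon that forms the second part of the third immunoglobulin loop, named IIIb or IIIc, which sets ligand choice. The IIIb exon (38423025 to 38423175) was in only 1 of the 12 transcripts used for this share, FGFR1-207, and the IIIc exon (38421797 to 38421941) in the others. The transcript with the IIIb exon took 27.0%, 31.8% and 27.2% of the estimated counts of those 12 in tet-ZFP36L1 at 0, 6 and 24 h, against 27.7%, 31.7% and 33.3% in tet-control. Transcripts with the exon of the first loop (38429682 to 38429948) took 47.9%, 44.3% and 43.6% of the counts of the same 12 in tet-ZFP36L1, against 53.4%, 45.4% and 45.7% in tet-control. Both shares differed by less than 10 percentage points among the libraries. FGFR1-207 also lacks the first-loop exon, and how reads were divided among transcripts was set by the authors' estimation, so these shares carry no interval.

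FGFR2 and FGFR3, receptors with roles in epithelia, were close to the limit of detection. FGFR2 (GRCh38 chromosome 10, 121478334 to 121598458, minus strand) had 4, 6 and 6 counts in tet-ZFP36L1 at 0, 6 and 24 h, against 2, 4 and 0 in tet-control. FGFR3 (chromosome 4, 1793293 to 1808872, plus strand) had 10, 2 and 16 counts in tet-ZFP36L1, against 7, 12 and 8 in tet-control. Within tet-ZFP36L1 the FGFR3 level at 6 h (0.0126 to 0.375 CPM) lay below that at 24 h (0.418 to 1.19 CPM), with 2 and 16 counts and intervals that cover counting error only. The counting intervals of every other pair of libraries overlapped, for FGFR3 as for FGFR2. FGFR3 reached at most 0.417 TPM and 1.01% of the summed TPM of the kinase receptors.

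FGFR4 (ENSG00000160867; GRCh38 chromosome 5, 177086886 to 177098144, plus strand), a receptor best known for its response to FGF19 in the liver, was lower at 6 h than at 0 h in both lines and lower in tet-ZFP36L1 than in tet-control at every time. Its level was 7.47, 1.56 and 4.48 CPM in the 0, 6 and 24 h libraries of tet-ZFP36L1 (152, 30 and 98 counts), against 19.0, 5.62 and 13.4 CPM in tet-control (382, 105 and 265 counts). The ranges of the lines overlapped, since tet-ZFP36L1 at 0 h was above tet-control at 6 h.

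The 6 h level of FGFR4 was 0.208 of that at 0 h in tet-ZFP36L1 (0.136 to 0.310) and 0.296 in tet-control (0.236 to 0.369). By 24 h it was 2.88 times the 6 h level in tet-ZFP36L1 (1.90 to 4.50) and 2.39 times in tet-control (1.90 to 3.02). FGFR4 thus moved alike in direction in both lines. A change of at least 2-fold downward at 6 h in both lines was found in 0.915% of the 11908 measured genes. The ratio of tet-ZFP36L1 to tet-control was 0.394 (0.324 to 0.476) at 0 h, before doxycycline, 0.277 (0.178 to 0.419) at 6 h and 0.334 (0.262 to 0.423) at 24 h. A level at least 2-fold lower in tet-ZFP36L1 at all 3 times was found in 1.20% of measured genes.

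The response of the lines to doxycycline and time together was compared as the induction difference. That is the change since 0 h of tet-ZFP36L1 less the change of tet-control over the same time, both on log2(CPM + 0.5). For FGFR4 it was -0.28 at 6 h (-0.82 to 0.25) and -0.19 at 24 h (-0.59 to 0.21). Both intervals hold 0, so at this depth a difference in response was not detectable, beside the difference between lines that was already there at 0 h.

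FGFRL1 (ENSG00000127418; GRCh38 chromosome 4, 1009936 to 1026897, plus strand), the receptor without a kinase domain, had the lowest induction difference of the measured members at both times. It measured 39.4, 10.1 and 12.2 CPM in the 0, 6 and 24 h libraries of tet-ZFP36L1 (802, 194 and 266 counts), against 64.3, 51.1 and 61.7 CPM in tet-control (1294, 955 and 1219 counts). The 3 libraries of tet-ZFP36L1 all lay below the 3 of tet-control, and both libraries with induced ZFP36L1 lay far below the rest.

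In tet-ZFP36L1 the level of FGFRL1 was 0.255 of that at 0 h after 6 h (0.217 to 0.299) and 0.309 after 24 h (0.268 to 0.355), and a downward change of at least 2-fold at both times was found in 2.53% of measured genes. In tet-control it was 0.795 after 6 h (0.731 to 0.865) and 0.961 after 24 h (0.887 to 1.04). The induction difference was therefore -1.59 at 6 h (-1.84 to -1.34) and -1.60 at 24 h (-1.82 to -1.37) on the log2 scale. The lines already differed before doxycycline, with a ratio of tet-ZFP36L1 to tet-control of 0.613 (0.561 to 0.670) at 0 h. At 6 h that ratio was 0.197 (0.168 to 0.230), and at 24 h it was 0.197 (0.172 to 0.225). The transcript FGFRL1-201, which holds the motif shown above, took 92.9% to 99.8% of the counts of the gene in tet-ZFP36L1 and 95.9% to 97.2% in tet-control.

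FGF1 (ENSG00000113578; GRCh38 chromosome 5, 142592178 to 142698070, minus strand), a ligand that binds all of the kinase receptors and leaves cells without a signal peptide, had the widest range of the members. Its level was 5.50, 69.4 and 77.4 CPM in the 0, 6 and 24 h libraries of tet-ZFP36L1 (112, 1338 and 1693 counts), against 1.19, 12.4 and 2.89 CPM in tet-control (24, 231 and 57 counts). The 6 h library was above the 0 h library in both lines, but at 24 h the level stayed high in tet-ZFP36L1 and was much lower again in tet-control. The ranges of the lines overlapped, since tet-ZFP36L1 at 0 h was below tet-control at 6 h.

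The 6 h level of FGF1 was 12.6 times that at 0 h in tet-ZFP36L1 (10.4 to 15.4) and 10.4 times in tet-control (6.80 to 16.5), and an upward change of at least 2-fold in both lines at 6 h was found in 0.714% of measured genes. Thus tet-control, in which ZFP36L1 was not raised, also had more FGF1 at 6 h than at 0 h. The 24 h level was 1.12 times the 6 h level in tet-ZFP36L1 (1.04 to 1.20) and 0.233 times in tet-control (0.172 to 0.313). At 24 h it remained 14.1 times the 0 h level in tet-ZFP36L1 (11.6 to 17.2) and 2.42 times in tet-control (1.48 to 4.08). An upward change of at least 2-fold at both times in tet-ZFP36L1 was found in 0.857% of measured genes.

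The lines thus differed in the response of FGF1 mainly at 24 h. The induction difference was 2.70 on the log2 scale at 24 h (2.12 to 3.27). At 6 h it was 0.61 (0.10 to 1.13), and without the pseudocount 0.28 (-0.39 to 0.95), and tet-control at 0 h held 24 counts. The ratio of tet-ZFP36L1 to tet-control was 4.62 at 0 h (2.95 to 7.50), 5.61 at 6 h (4.88 to 6.48) and 26.8 at 24 h (20.6 to 35.6). A level at least 2-fold higher in tet-ZFP36L1 at all 3 times was found in 2.89% of measured genes. The course of FGF1, at least 2-fold up at 6 h and at least 2-fold down again by 24 h in tet-control while at least 2-fold up at both times in tet-ZFP36L1, was found in 20 of the 11908 measured genes (0.168%), FGF1 among them. That course was written down after its values were seen, so the share describes FGF1 and tests nothing.

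FGF1 has alternative first exons under separate promoters. FGF1-202, whose annotated start is at 142621342, took 79.7%, 88.4% and 91.8% of the estimated counts in tet-ZFP36L1 at 0, 6 and 24 h, against 79.4%, 77.4% and 65.6% in tet-control. FGF1-208, with a start further upstream at 142698046, took 7.29%, 8.32% and 5.31% in tet-ZFP36L1, against 1.57%, 17.2% and 8.44% in tet-control. FGF1-202 thus took most of the counts in all 6 libraries, and its estimated counts were 89.3, 1182 and 1553 in tet-ZFP36L1 and 19.1, 179 and 37.4 in tet-control. Per length the order of these transcripts was not the same everywhere: in tet-control at 6 h FGF1-202 was at 3.27 TPM and the shorter FGF1-208 at 5.02 TPM. The shares in tet-control at 0 h and 24 h rest on 24 and 57 counts.

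**Figure D3:**
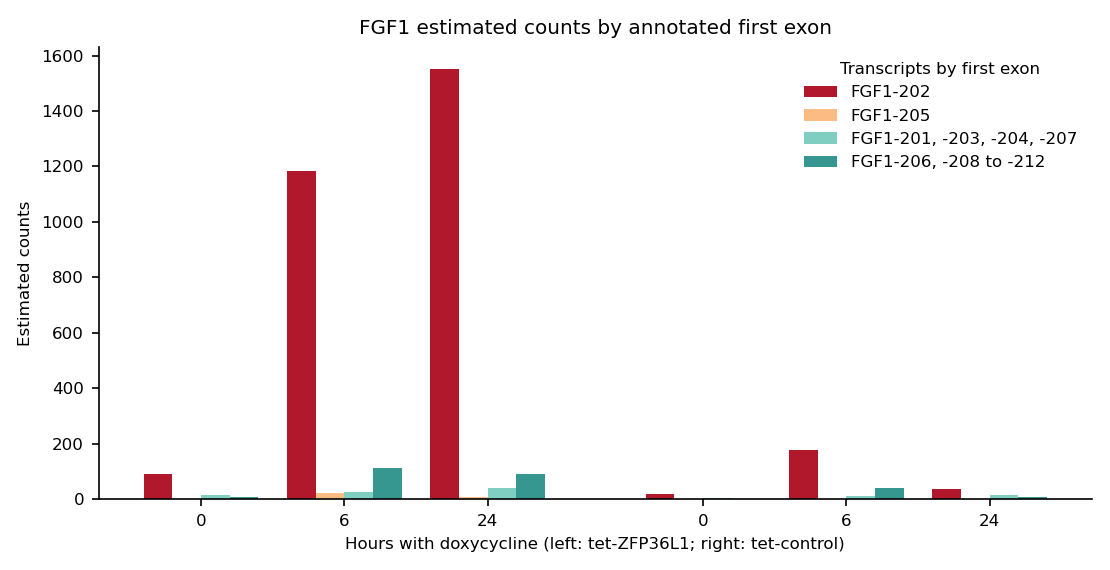
Estimated counts of FGF1 by transcript, grouped by the place of the annotated first exon, in each library, with tet-ZFP36L1 before tet-control. FGF1-204 shares a bar with FGF1-201, FGF1-203 and FGF1-207, though its first exon lies nearby and does not overlap theirs. FGF1-202 holds 65.6% to 91.8% of the counts in every library, with 1553 estimated counts at 24 h in tet-ZFP36L1 and 37.4 in tet-control.

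FGF2 (ENSG00000138685; GRCh38 chromosome 4, 122826708 to 122898236, plus strand), a broadly acting ligand that is also secreted without a signal peptide, varied 1.70-fold over the libraries. It measured 68.8, 65.1 and 45.9 CPM in the 0, 6 and 24 h libraries of tet-ZFP36L1, against 55.8, 78.0 and 54.5 CPM in tet-control. The lines overlapped, with tet-control highest at 6 h and tet-ZFP36L1 lowest at 24 h. The 6 h level was 0.946 of that at 0 h in tet-ZFP36L1 (0.875 to 1.02) and 1.40 times in tet-control (1.29 to 1.51). The 24 h level was 0.667 of that at 0 h in tet-ZFP36L1 (0.614 to 0.724) and 0.978 in tet-control (0.899 to 1.06).

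The induction difference of FGF2 was -0.56 at 6 h (-0.72 to -0.41) and -0.55 at 24 h (-0.71 to -0.38), below the 2-fold threshold at both times. NUDT6, a gene on the opposite strand, overlaps 804 of the 6775 exonic bases of FGF2. It had 169, 153 and 150 counts in tet-ZFP36L1, against 88, 140 and 115 in tet-control, far fewer than FGF2, and use of strand in assigning reads is not stated in the labels. The longer transcript FGF2-201, which holds the motif shown above, took 73.9% to 81.0% of the counts of FGF2 in tet-ZFP36L1 and 68.9% to 79.1% in tet-control.

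FGF5 (ENSG00000138675; GRCh38 chromosome 4, 80266599 to 80336680, plus strand), a ligand known for ending the growth phase of the hair follicle, was highest at 6 h in both lines. Its level was 77.9, 142 and 102 CPM in the 0, 6 and 24 h libraries of tet-ZFP36L1, against 121, 256 and 118 CPM in tet-control. On CPM tet-ZFP36L1 was the lower line at each time, but on the deposited TPM it was the higher one at 24 h, at 72.9 against 59.5 TPM. The ranges of the lines overlapped. The 6 h level was 1.82 times that at 0 h in tet-ZFP36L1 (1.71 to 1.94) and 2.11 times in tet-control (2.01 to 2.22). At 24 h it was 1.31 times the 0 h level in tet-ZFP36L1 (1.23 to 1.40) and 0.972 of it in tet-control (0.918 to 1.03).

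The induction difference of FGF5 was -0.22 at 6 h (-0.33 to -0.10) and 0.43 at 24 h (0.31 to 0.55) on CPM, whereas on the deposited TPM it was 0.15 at 6 h, with the opposite sign, and 1.01 at 24 h. FGF5-204, annotated as a processed transcript and shorter than FGF5-201 and FGF5-203, took 16.8%, 27.3% and 20.1% of the counts in tet-ZFP36L1, against 14.8%, 15.5% and 20.1% in tet-control. It held 5.91, 16.9 and 9.81 of the 40.6, 88.8 and 72.9 TPM of the gene in tet-ZFP36L1, so most of that TPM was in other transcripts. Which transcripts set CPM and TPM apart was not tested.

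The make-up of the ligand transcripts differed between the lines. FGF5 made up 66.6%, 57.8% and 54.9% of the summed TPM of FGF1, FGF2 and FGF5 in tet-ZFP36L1 at 0, 6 and 24 h, against 83.0%, 82.9% and 81.1% in tet-control. FGF1 made up 6.77%, 32.9% and 36.4% in tet-ZFP36L1 and 1.04%, 6.16% and 3.26% in tet-control. The summed level of the 3 ligands was 61.0, 154 and 133 TPM in tet-ZFP36L1 and 81.0, 159 and 73.4 TPM in tet-control, so the sums were alike at 6 h and the line with induced ZFP36L1 was higher at 24 h. Shares and sums take in minor transcripts with few counts, which weigh heavily in the TPM of FGF5, and were not worked out without them.

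FGFBP1 (GRCh38 chromosome 4, 15935569 to 15938740, minus strand), the carrier that releases FGF from the matrix, had 0 counts in all 3 libraries of tet-ZFP36L1, against 1, 0 and 1 in tet-control. A count of 0 has an exact upper limit of 0.169 to 0.191 CPM in the libraries of tet-ZFP36L1 and 0.197 CPM in tet-control at 6 h. The 1 count at 0 h and at 24 h in tet-control has an exact upper limit of 0.277 and 0.282 CPM. No difference was detectable at this depth.

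A member was counted as lower or higher when its induction difference and its own change in tet-ZFP36L1 were both at least 2-fold. At 6 h, 1 of the 6 measured members was lower, FGFRL1, beside 2.55% of all measured genes, and 0 were higher, beside 0.739%. At 24 h, 1 was lower, FGFRL1 again, beside 4.98%, and 1 was higher, FGF1, beside 2.74%. With a 1.5-fold threshold FGFRL1 was still the 1 lower member at 6 h, beside 8.86%, and at 24 h, beside 14.4%, while FGF1 was higher at 6 h, beside 3.06%, and at 24 h, beside 9.44%. The libraries of the lines did not overlap over the 3 times, with a mean difference of at least 2-fold, for 1 member, FGFRL1, which was lower in tet-ZFP36L1, with a mean difference of -1.76 on the log2 scale. That was found in 3.07% of measured genes, and the same in the other direction in 4.55% with 0 members.

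**Figure D4:**
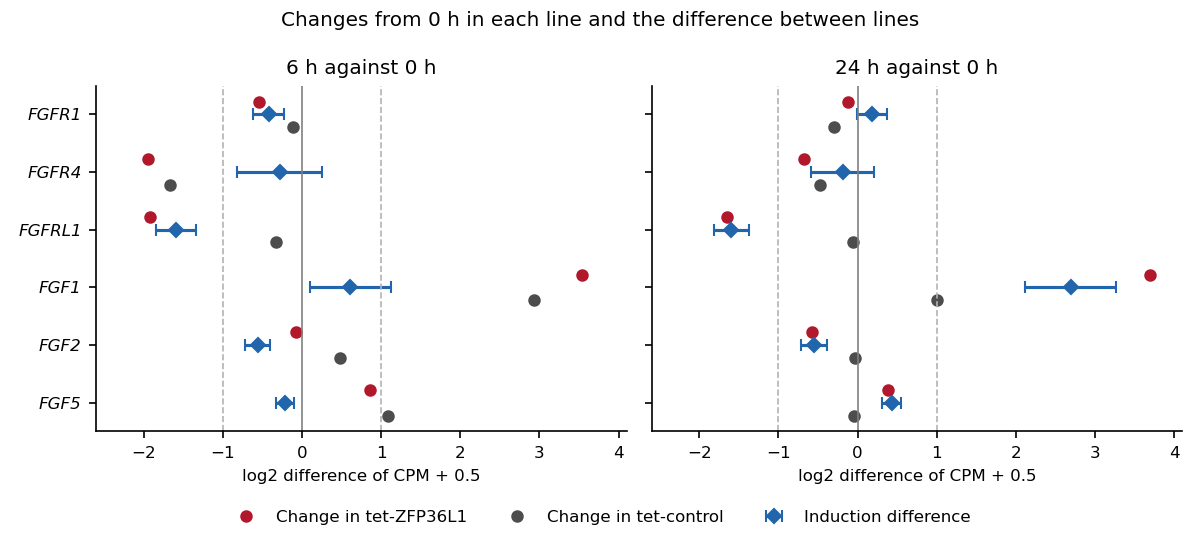
Log2 change from 0 h, on log2(CPM + 0.5), of the 6 measured members at 6 and 24 h in tet-ZFP36L1 and tet-control, and their induction difference with 95% counting intervals. FGFRL1 stands at -1.59 and -1.60 and FGF1 at 0.61 and 2.70, while the other 4 lie between -0.56 and 0.43.

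For each measured member, the protein-coding genes of most like course were taken as those with the smallest root mean square difference of the centred log2(CPM + 0.5) profile over the 6 libraries, among 11079 genes. For FGFRL1 these were ST3GAL4 (0.112), MICB (0.154) and SLCO4A1 (0.165), against a spread of FGFRL1 itself of 1.071. SLCO4A1 had 562, 139 and 167 CPM in tet-ZFP36L1 over the 3 times, against 962, 535 and 768 CPM in tet-control. For FGFR4 the nearest was PPARG (0.260, against a spread of 1.048), a nuclear receptor of the urothelial marker list, followed by CXADR (0.342) and RAPGEF5 (0.352). PPARG had 4.86, 1.14 and 2.79 CPM in tet-ZFP36L1 and 16.6, 6.42 and 10.9 CPM in tet-control.

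For FGF1 the nearest were LAMA1 (0.649), LCP1 (0.746) and KDM4A (0.854), against a spread of 2.084. LAMA1 had 1.57, 10.2 and 8.28 CPM in tet-ZFP36L1 and 0.199, 2.89 and 0.203 CPM in tet-control. LCP1 had 2.41, 121 and 44.0 CPM in tet-ZFP36L1 and 0.596, 5.56 and 0.608 CPM in tet-control. For FGF5 the nearest were DOK3 (0.053), GBX2 (0.092) and USP36 (0.101). For FGF2 they were ENO3 (0.044), STX16 (0.045) and PIGA (0.050), and for FGFR1 KMT5C (0.037), TSC22D1 (0.057) and DBT (0.064), both members with small spreads of their own (0.248 and 0.215).

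The rest of the pathway was read from 8 lists with 106 genes, of which 63 were measured. By the same rule, 3 of the 63 were counted lower at 6 h, beside 2.55% of all measured genes, and 2 were counted higher, beside 0.739%. At 24 h the rule counted 7 as lower, beside 4.98%, and 4 as higher, beside 2.74%. The median induction difference of the 63 was -0.25 at 6 h and -0.11 at 24 h, beside -0.01 and -0.02 over all measured genes. On plain CPM and on the deposited TPM the 24 h median of the 63 had the opposite sign, 0.06 on both, and plain CPM moved that of all measured genes to 0.149. Other ligands were nearly absent. None of 15 other secreted FGF genes was measured, and 10 of them had at most 3 counts in every library. FGF18, picked here after its values were seen, had 6, 0 and 3 counts in tet-ZFP36L1, against 31, 22 and 33 in tet-control.

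Among the 4 intracellular FGF homologous factors, which bind sodium channels rather than receptors, 2 were measured and none was counted. FGF11 had an induction difference of 1.32 at 24 h but its own change in tet-ZFP36L1 was 0.92. Among 12 co-receptors and partners, 5 were measured, and L1CAM, a cell adhesion molecule that can engage FGF receptors, was counted lower at 24 h (-1.04) and FLRT2, a membrane protein of a family that binds FGF receptors, higher (1.24). L1CAM, FLRT2 and CDH2 were higher in every library of tet-ZFP36L1 than in tet-control, with a mean difference of at least 2-fold. That was found in 4.55% of measured genes. L1CAM stood at 33.2, 32.3 and 13.7 CPM against 3.58, 3.69 and 3.04 CPM. The klotho co-receptors KL and KLB, which serve hormone-like FGFs, were not measured.

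Of 12 heparan sulfate core proteins, 8 were measured. At 24 h GPC4, a glypican, was counted lower, with an induction difference of -1.54, and SDC3, a syndecan, higher, at 1.25. SDC4, another syndecan, had a difference of -1.86 at 6 h, made up of a change of -0.87 in tet-ZFP36L1 and 0.99 in tet-control, so it was not counted. For 5 of the 8 the lines did not overlap and had a mean difference of at least 2-fold. HSPG2 and SDC2 were lower in tet-ZFP36L1, beside 3.07% of measured genes, and AGRN, GPC1 and SDC1 higher, beside 4.55%. The lines did not overlap for SDC3 either, but its mean difference fell short of 2-fold. SDC3 stood at 33.8, 33.3 and 80.5 CPM in tet-ZFP36L1 against 32.2, 33.0 and 32.0 CPM in tet-control, so the lines were nearly level at 0 and 6 h. HSPG2, which encodes perlecan, stood at 41.4, 64.3 and 144 CPM in tet-ZFP36L1 and at 232, 456 and 478 CPM in tet-control. Of 21 genes of heparan sulfate synthesis and editing, 11 were measured, and 0 were counted at either time.

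Adaptors and RAS to ERK genes had medians below that of all genes at both times, on plain CPM and on TPM too. Of 12 adaptors 11 were measured, with a median induction difference of -0.30 at 6 h and -0.46 at 24 h, and FRS3 was counted lower at 6 h (-1.12) and PTPN11, the phosphatase SHP2, at 24 h (-1.09). FRS2, the main adaptor of FGF receptors, had -0.27 and 0.06. All 12 RAS to ERK genes were measured. Their median was -0.38 after 6 h and -0.37 after 24 h, and HRAS was counted lower at 24 h (-1.21). MAP2K1, the kinase MEK1, stood at -0.85 and -0.95, below the threshold.

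Among 18 ERK target and feedback genes, 14 were measured, and they went both ways. EGR1, an immediate early transcription factor, had 1.61 and 1.17 at 6 and 24 h, and SPHK1, a sphingosine kinase, had 1.69 and 2.26. CCND1, which encodes cyclin D1, had -1.27 and -1.86, and PHLDA1 had -1.35 and -1.50. PHLDA1 began higher in tet-ZFP36L1, at 193 CPM against 84.6 CPM in tet-control at 0 h. At 6 and 24 h it stood at 72.9 and 67.2 CPM against 81.3 and 83.5 CPM, not far below tet-control. SPRY4, an inhibitor of receptor tyrosine kinase signalling, was counted lower at 24 h (-1.26). The 14 had a median of -0.01 after 6 h, with the opposite sign on plain CPM (0.03), and -0.30 after 24 h, which was -0.13 on plain CPM and -0.03 on the deposited TPM. DUSP6, ETV4 and ETV5, genes often read as a measure of FGF and ERK activity, lay between -0.50 and 0.29. They do not stand for the list. At 24 h SPRY2, SPRED1 and FOSL1 had -0.90, -0.84 and -0.83, ETV1 had -0.11, and SPRED2 and DUSP5 had 0.27 and 0.75.

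**Figure D5:**
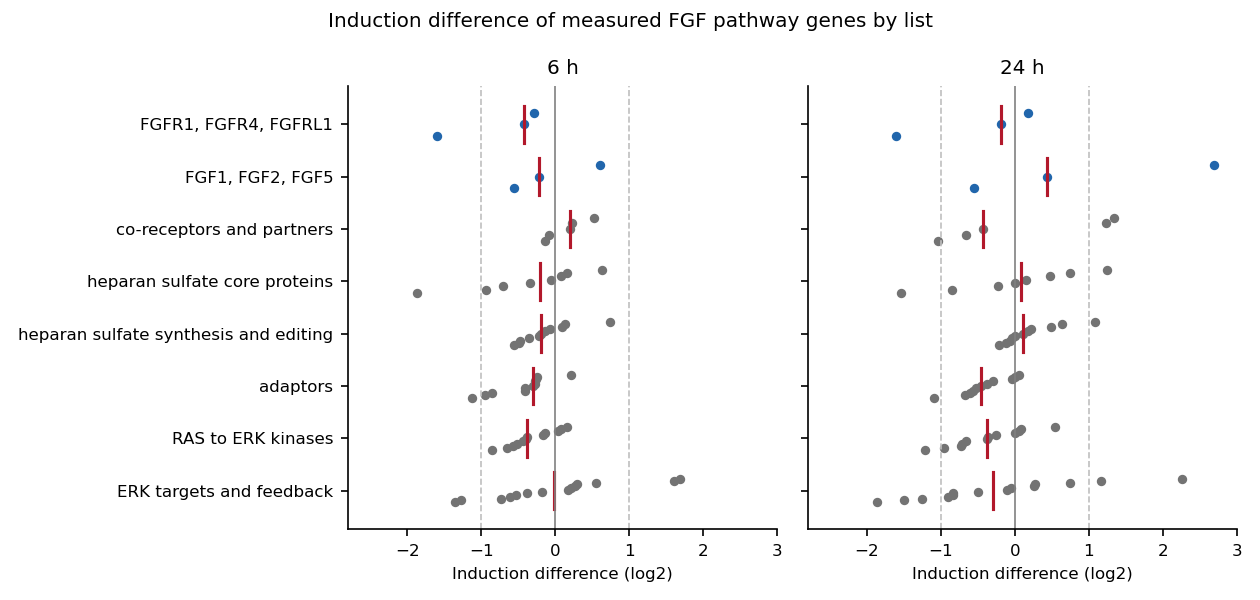
Induction difference on log2(CPM + 0.5) of each measured gene of the members (blue) and of 6 pathway lists (grey) at 6 and 24 h, 1 point per gene, with red bars at the list medians and dashed lines at a 2-fold difference. The RAS to ERK list has medians of -0.38 and -0.37, left of the line at 0.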

How the data were processed

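Total RNA of 6 J82 cultures was read on a BGISEQ-500 instrument, as the labels' protocols state, and samples were grouped by their titles into 2 lines at 3 times with 1 library each. Tools named in the submitters' processing notes are kallisto and DESeq2, with hg19 as the build and no version. The deposited files list 196354 transcripts with estimated counts, which need not be whole, and with TPM, which the authors' quantification scaled for effective length and depth.

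Transcripts were matched by identifier to GENCODE 29, and 181854 matched. Unmatched ones, with 5.12% to 5.47% of the estimated counts, were left out. Positions and sequences are those of GRCh38, and none was converted. Sums of estimated counts over the transcripts of a gene were rounded, giving 19604891 to 20244775 counts per library. TMM factors (edgeR 4.0.16, R 4.3.3) used genes averaging at least 10 counts, and levels were taken to log2(CPM + 0.5), so changes of low genes are understated. Genes averaging at least 50 counts are called measured.

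With 1 library per group neither edgeR nor DESeq2 was used for a test, and an additive model of line and time was not fitted. Intervals are exact Poisson for levels, exact binomial (Clopper-Pearson) for ratios and from the delta method for the induction difference. The reads carry no molecular identifiers and are not independent molecules. Intervals cover counting error only. The members and lists were chosen with earlier results of these data known. Genes were named by a rule: the members, overlapping genes, transcripts with at least 5% of a member's counts, the 3 most alike genes, and list genes at the extremes or with a difference of at least 1. The text gives part of these. Outside the rule fall FGF18, FRS2, the genes of the line comparison, and ERK target and feedback genes with differences below 1, among them DUSP6, ETV4 and ETV5. The settings varied were the scaling (size factors of DESeq2 1.42.0, unscaled CPM, deposited TPM), protein-coding transcripts alone, other pseudocounts and minimums, a 1.5-fold threshold, leaving out a time, and a rule chosen after seeing the data, which also asks that tet-ZFP36L1 and tet-control differ 2-fold at that time. Python 3.11.15 with numpy 2.4.6, pandas 2.3.3, scipy 1.17.1 and matplotlib 3.10.9 was used.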

Additional observations from a re-analysis of the deposited data

How the results depend on the processing

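With 1 library per group nothing here measures variation between cultures. The counts of members kept their values under the alternatives run, with the exceptions that follow. FGF1 was counted higher at 6 h, giving 1 member instead of 0, with a 1.5-fold threshold, beside 3.06% of measured genes. The same held with a pseudocount of 5 (induction difference 1.34). Members whose lines did not overlap were 3 instead of 1 (FGFR4, FGFRL1 and FGF1) when the 0 h libraries of both lines were left out. They were also 3 when the 6 h libraries were left out. With fewer libraries per line an overlap is less likely to be seen. The share of all measured genes was not taken at that pseudocount or with a time left out, so these counts have none beside them. Of 108 values of single members under other scalings and pseudocounts, 99 stayed within the counting interval (induction difference) or 1 SD over the times (line difference), and 9 did not. The sign changed in 4: FGF5 at 6 h, whose interval excludes 0, from -0.22 to 0.15 on the deposited TPM, FGFR4 at 6 h, whose interval holds 0, from -0.28 to 0.25 with a pseudocount of 5, and the mean line difference of FGF2, from -0.07 to 0.02 on plain CPM and 0.01 on TPM. The cause was not tested. Plain CPM moved the median induction difference of all measured genes at 24 h to 0.149, and with it FGF2 from -0.55 to -0.38 and FGFRL1 from -1.60 to -1.43. Depth limits FGFR2, FGFR3 and FGFBP1, with 22, 55 and 2 counts over all libraries. No paired analysis was possible because the labels number no replicates. A comparison of the lines with time as a block could have been fitted and was not.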
